A study of Mus musculus with 28 samples.

Results

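The Nkx homeobox genes examined here are Nkx2-1, Nkx2-2, Nkx2-3, Nkx2-5, Nkx2-6, Nkx3-2 and Nkx6-1. They were taken by name from the mm9 annotation and are 7 of its 22380 protein-coding genes, and all 7 were found in it. The 7 genes lie on 6 chromosomes. Nkx2-1 is at chr12:57632922-57637895, Nkx2-2 at chr2:147003282-147019979, Nkx2-5 at chr17:26975609-26978510, Nkx3-2 at chr5:42152404-42155735 and Nkx6-1 at chr5:102087158-102094245, all on the minus strand, and Nkx2-3 at chr19:43686815-43690381 and Nkx2-6 at chr14:69789633-69793596 on the plus strand. The cultures were mesodermal precursors made from mouse embryonic stem cells (ESCs) and collected at day 4. The labels give the genotype Brg1f/f; Actin-CreER for every sample, so that control and treated cells shared floxed alleles of Brg1, the ATPase subunit of BAF chromatin remodeling complexes, and a tamoxifen-inducible Cre under a broadly active promoter. On day 2 the cells received 200 nM 4-hydroxytamoxifen (4-OHT) in tetrahydrofuran (THF), which deletes Brg1, or THF alone as the control, with 40 h of mesoderm induction before collection. Regions enriched by chromatin immunoprecipitation and sequencing (ChIP-seq) were available for H3K27me3 in 3 control and 3 4-OHT replicates, for Suz12 in 2 and 2, for H3K27ac in 2 and 2, and for FLAG-tagged Brg1 in 3 replicates. For FLAG the labels carry the genotype above, whereas the study's text describes duplicates of ESCs with a FLAG-tagged Brg1 allele, and all 3 lists were used here. Each list gives the start and end of enriched regions without a score or a read count, so the length of DNA covered by regions in a window is the measure throughout, and read depth is unknown.

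Nkx proteins are homeodomain transcription factors that act in the fate choices of several organs. Nkx2-5 acts in cardiac progenitors, Nkx2-6 in the pharyngeal pouches and caudal heart, Nkx2-3 in gut and spleen mesenchyme and Nkx3-2 in the sclerotome that forms the axial skeleton. Nkx2-1 acts in thyroid, lung and ventral forebrain, and Nkx2-2 and Nkx6-1 act in the ventral neural tube and the pancreatic islet. In cells of other lineages such genes are commonly held silent by Polycomb repressive complex 2 (PRC2), of which Suz12 is a core subunit and which deposits the histone mark H3K27me3. H3K27ac is found at active promoters and enhancers, and PRC2 in vertebrates tends to occupy promoters rich in the dinucleotide CG.

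The CG content of the promoters differed among the 7 genes. Within 500 bp on each side of the transcriptional start site (TSS), Nkx6-1 held 73 CG dinucleotides and Nkx3-2 held 57. Nkx2-1, Nkx2-2 and Nkx2-5 each held 48 and Nkx2-3 held 47, all above the median of 41 over 22231 genes. Nkx2-6 held 26, more than 40.0% of genes. The ratio of observed to expected CG was 0.375 in Nkx2-6 and lay between 0.571 and 0.778 in the other 6 genes, beside a median of 0.554 over all genes. The 250 bp upstream of the TSS are shown, on the mm9 build and read on the strand of the gene, for the member with the most CG in this stretch (Nkx6-1, 19), for the cardiac factor Nkx2-5 (8) and for the member with the fewest (Nkx2-6, 4). CG is in capitals. They lie on the minus strand at chr5:102094246-102094495 for Nkx6-1 and at chr17:26978511-26978760 for Nkx2-5, and on the plus strand at chr14:69789383-69789632 for Nkx2-6.
Nkx6-1: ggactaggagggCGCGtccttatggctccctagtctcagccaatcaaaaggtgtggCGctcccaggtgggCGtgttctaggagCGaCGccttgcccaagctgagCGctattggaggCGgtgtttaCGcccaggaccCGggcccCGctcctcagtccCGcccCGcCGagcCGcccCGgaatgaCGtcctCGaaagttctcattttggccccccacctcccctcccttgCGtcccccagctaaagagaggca
Nkx2-5: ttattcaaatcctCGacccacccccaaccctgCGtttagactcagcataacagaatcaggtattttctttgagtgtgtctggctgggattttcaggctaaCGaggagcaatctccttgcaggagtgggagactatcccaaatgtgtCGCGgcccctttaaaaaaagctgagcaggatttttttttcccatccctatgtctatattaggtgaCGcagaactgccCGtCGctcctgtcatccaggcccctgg
Nkx2-6: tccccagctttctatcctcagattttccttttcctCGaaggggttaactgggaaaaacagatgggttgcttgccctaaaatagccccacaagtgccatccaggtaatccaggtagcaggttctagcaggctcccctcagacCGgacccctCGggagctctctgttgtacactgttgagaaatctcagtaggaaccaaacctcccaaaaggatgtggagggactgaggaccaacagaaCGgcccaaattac
The median over all genes was 9 CG in this stretch, and Nkx2-1 (9), Nkx2-2 (8), Nkx2-3 (14) and Nkx3-2 (7) lay between Nkx2-6 and Nkx6-1.

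The lists themselves differed in ways that touch every value below. H3K27me3 replicate 1 stood apart in both conditions. Its regions had a median width of 250 bp in the control, and of the bases near the 7 genes that both Suz12 control lists covered it covered 51.6% in the control and 38.7% with 4-OHT, whereas replicates 2 and 3 covered 94.1 to 98.8%. H3K27me3 covered less of the genome in the 4-OHT replicate than in the control replicate of the same number in 3 of 3 pairs, from 8.38 to 4.74 Mb, 11.01 to 8.99 Mb and 10.0 to 7.62 Mb. FLAG replicate 3 held 192 regions against 8021 and 8257 in replicates 1 and 2. Among markers of the cultures, H3K27ac lay within 5 kb of the TSS in both control replicates at 6 of 8 mesoderm genes, 3 of 5 pluripotency genes, 2 of 4 endoderm genes, 0 of 4 neural genes and 1 of 4 cardiomyocyte genes, and at 5 of 5 genes active in every cell. The mesoderm markers Kdr and Cdx2 had none. The counts in both 4-OHT replicates were 6, 4, 1, 0, 0 and 5 in the same order. The part that this makeup of the cultures had in the results was not tested, and in such bulk cultures fewer marked cells and less mark per cell cannot be told apart.

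All 7 genes carried H3K27me3 and Suz12 and almost no H3K27ac in control mesodermal cultures. An H3K27me3 region lay within 5 kb of the TSS in each of the 6 lists at 7 of 7 genes, beside 8.81% of all protein-coding genes. A Suz12 region lay there in each of the 4 lists at 7 of 7 genes, beside 5.82% of all genes. H3K27ac was present in every replicate of both conditions at 0 of 7 genes, beside 45.9% of all genes. Of 6 further genes of the family, Nkx1-1, Nkx1-2, Nkx2-4, Nkx2-9, Nkx6-2 and Nkx6-3, 6 had H3K27me3 and 6 had Suz12 in every list, and 1, Nkx2-9, had H3K27ac in all 4.

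Of the 7 genes, 6 were among the most widely covered by H3K27me3 and Suz12 of all marked genes, and Nkx2-6 was not. By mean control H3K27me3 coverage within 5 kb of the TSS, Nkx2-5 (8533 bp ± 2540 SD, n = 3) ranked 54 of 4083 marked genes, Nkx2-1 (8500 ± 2598) ranked 59 and Nkx2-3 (8308 ± 2930) ranked 82. Nkx2-2 (7488 ± 3098), Nkx3-2 (7132 ± 2357) and Nkx6-1 (6870 ± 1627) ranked 144, 174 and 192. Neighbours in this order differed by less than their SD, and replicate 1 was the low value of each of the 6. Nkx2-6 (2883 ± 535) lay below Nkx6-1 by more than both SDs, ranked 781 and was the lowest of the 7 genes in each of the 6 lists. By Suz12, Nkx2-3 shared the highest rank of 1687 genes, since the whole 10000 bp window was covered, and Nkx2-6 ranked 870. At Nkx2-1 one H3K27me3 region of 17550 bp in control replicate 2 and one of 17425 bp in replicate 3 were the 28th and the 21st widest of 8798 and 8977 regions. In replicates 2 and 3 of both conditions H3K27me3, and in all 4 lists Suz12, covered the entire gene bodies of Nkx2-1 (4974 bp), Nkx2-3 (3567 bp) and Nkx2-5 (2902 bp).

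Coverage dipped at the TSS itself. In the plot of covered genes by distance, H3K27me3 replicates 2 and 3 of both conditions covered 4 of 7 genes in the bins on either side of the TSS, fewer than within the gene or 2 kb upstream, and replicate 1 covered 0 of 7 just downstream in both conditions. At Nkx2-6 no Suz12 region lay within 1 kb of the TSS in any of 4 lists. Its Suz12 region was in the 3′ part of the gene, at chr14:69792051-69793450, and covered 500 and 950 bp in the control against 700 and 1400 bp with 4-OHT. H3K27me3 within 1 kb of the Nkx2-6 TSS was 558, 542 and 250 bp in the control and 200, 0 and 100 bp with 4-OHT. These values did not overlap, in a window chosen after they were seen. The share of all genes without overlap in that window was not counted, so this cannot be read as a trait of Nkx2-6.

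**Figure D1:**
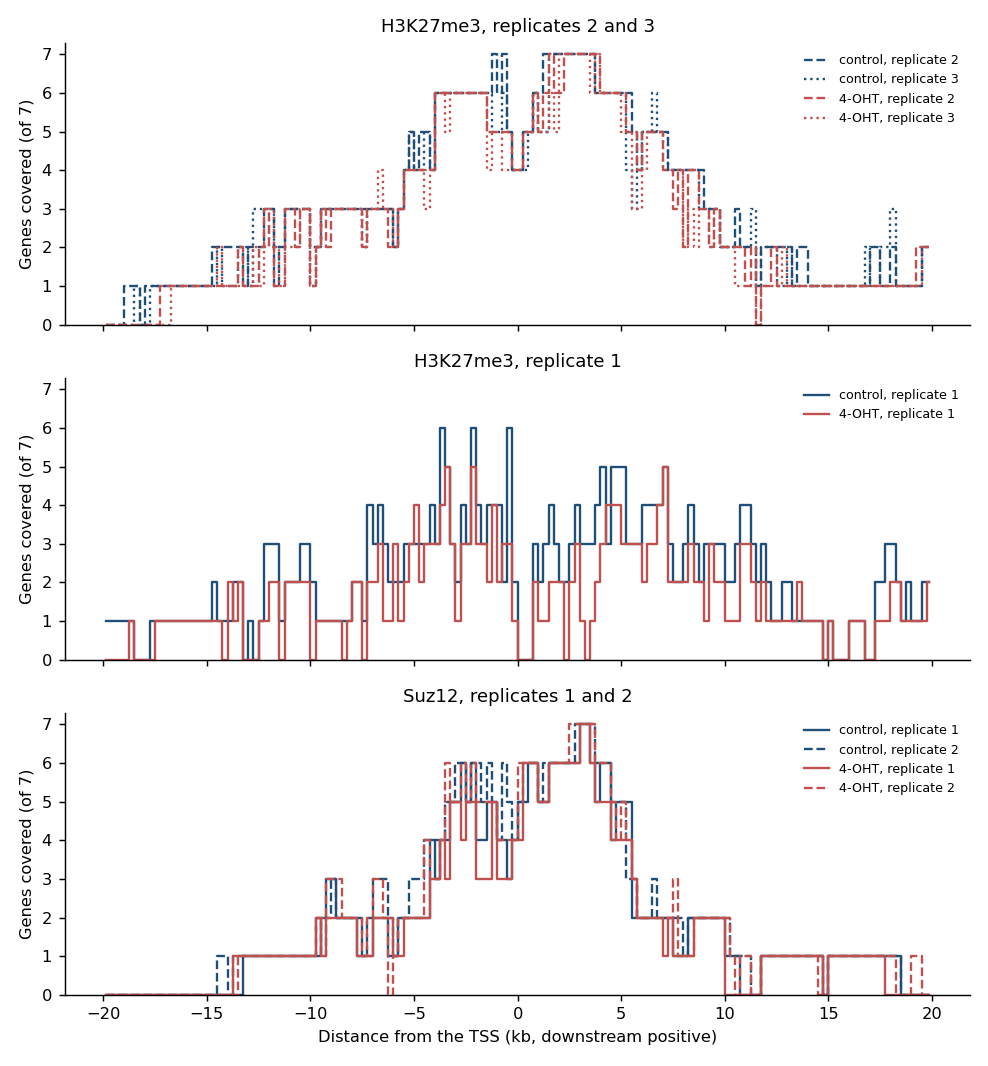
Number of the 7 Nkx genes covered by a region at each distance from the TSS (x axis, kb, downstream positive, read every 0.25 kb), for H3K27me3 replicates 2 and 3, H3K27me3 replicate 1 and Suz12, with control in blue and 4-OHT in red. H3K27me3 replicates 2 and 3 reach 7 of 7 genes downstream of the TSS and drop to 4 of 7 at the TSS, and replicate 1 shows 0 of 7 just downstream.

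H3K27me3 within 5 kb of the TSS was lower with 4-OHT in 17 of 21 comparisons of same-numbered replicates, but by little beside the spread between replicates. Values are given as replicates 1, 2 and 3. Nkx2-5, the cardiac factor, had 5600, 10000 and 10000 bp covered in the control and 4060, 10000 and 9775 bp with 4-OHT. Nkx2-3 had 4925, 10000 and 10000 bp in the control and 3760, 10000 and 9775 bp with 4-OHT. Nkx2-1 had 5500, 10000 and 10000 bp in the control and 4700, 10000 and 9750 bp with 4-OHT. At these 3 genes replicate 2 filled the window in both conditions, so that a change there could not be seen at this width.

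Nkx2-2, a factor of the ventral neural tube, had 3913, 9400 and 9150 bp in the control and 2113, 8725 and 7925 bp with 4-OHT. Nkx6-1 had 5005, 8000 and 7605 bp in the control and 3775, 7355 and 7255 bp with 4-OHT, and Nkx3-2 had 4415, 8640 and 8340 bp and 3100, 8365 and 7990 bp. In these 3 genes the 4-OHT value was the lower in every pair. Nkx2-6 had 2600, 3500 and 2550 bp in the control and 1850, 2725 and 2625 bp with 4-OHT, and its pair 3 went the other way. As replicates, the control and 4-OHT values overlapped at all 7 genes, since replicate 1 of the control lay below replicates 2 and 3 of the 4-OHT cultures at all 7. The sign of the mean difference turned on single lists. Without 4-OHT replicate 1 it was positive at 6 genes, from 435 bp at Nkx6-1 to 1579 bp at Nkx2-3, and stayed negative at Nkx2-6. Without control replicate 2 it was positive at Nkx2-1, Nkx2-3, Nkx2-5 and Nkx3-2, from 108 to 400 bp, and without control replicate 3 at Nkx2-1, Nkx2-3 and Nkx2-5, from 145 to 400 bp.

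By the rule that all 4-OHT replicates lie below all control replicates, 0 of 7 genes were lower, beside 11.9% of the 4205 genes with any H3K27me3 in this window, and 0 of 7 were higher, beside 0.19%. The two-sided exact permutation p of single genes was between 0.5 and 0.7. Samples of the same replicate number were taken as pairs. The lists set replicate 1 apart clearly and replicates 2 and 3 from each other less so (correlations are given with the processing). With pairs as blocks 3 of 7 genes, Nkx2-2, Nkx3-2 and Nkx6-1, were lower in all 3 pairs, beside 44.1% of tested genes (exact sign-flip permutation p = 0.25 each, the smallest that 3 pairs allow). Without replicate 1 of either condition, an alternative chosen after the data were seen, 2 of 7 genes, Nkx2-2 and Nkx6-1, were lower without overlap, beside 43.4%. Without control replicate 1 alone there were also 2, beside 37.1%. Of the 6 further Nkx genes, 5 were lower in all 3 pairs.

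Over the wider window of 50 kb on each side, H3K27me3 was lower with 4-OHT at 7 of 7 genes in all 3 pairs (exact sign-flip permutation p = 0.25 for each gene). The same held at 48.8% of the 8530 genes with any H3K27me3 in that window. Median control coverage there was 15700 bp over the 7 genes and 858 bp over the tested genes. The 4-OHT lists also covered less of the genome in every pair. The part that either has in these counts was not tested. Nkx2-5 had 10550, 19100 and 18275 bp in the control and 7475, 16600 and 16000 bp with 4-OHT, with a mean paired difference of -2617 bp. Nkx2-3 had the largest mean difference, -4658 bp, from 22075, 28600 and 27400 bp to 14875, 24975 and 24250 bp. Nkx3-2 went from 12925, 17225 and 16950 bp to 8600, 14350 and 12850 bp, which was the lowest ratio of the means among the 7 genes at 0.760. The mean difference was larger than the control SD at Nkx2-3 and Nkx3-2 and smaller than it at Nkx2-5, and at all 3 genes it was larger than the SD of the paired differences.

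At the other 4 genes the differences were of unequal size. Nkx2-2 had 9775, 17575 and 17275 bp in the control and 6000, 15675 and 15050 bp with 4-OHT. Nkx6-1 had 10350, 13975 and 12825 bp and 6525, 12100 and 11000 bp. Nkx2-1 had 20700, 26700 and 26325 bp and 18050, 26600 and 26275 bp, so that pairs 2 and 3 differed by 100 and 50 bp and nearly all of its mean difference came from replicate 1. Nkx2-6 had 3475, 4475 and 3350 bp and 2525, 3950 and 3275 bp.

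Without pairing, 0 of 7 genes had 4-OHT values that all lay below the control values within 50 kb, beside 15.5% of tested genes. Without control replicate 1 there were 5, beside 42.6%, and without 4-OHT replicate 2 there were 2, beside 28.8%. Without replicate 1 of either condition there were 5 of 7, Nkx2-2, Nkx2-3, Nkx2-5, Nkx3-2 and Nkx6-1, beside 49.6% of 6905 tested genes. Of the 6 further Nkx genes, 5 were lower in all 3 pairs. One of them, Nkx2-9, did not overlap between conditions within 50 kb, at 14133 bp ± 1000 SD in the control and 9467 bp ± 975 SD with 4-OHT (n = 3 each, two-sided exact permutation test p = 0.1), in a window that partly overlaps that of Nkx2-1.

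**Figure D2:**
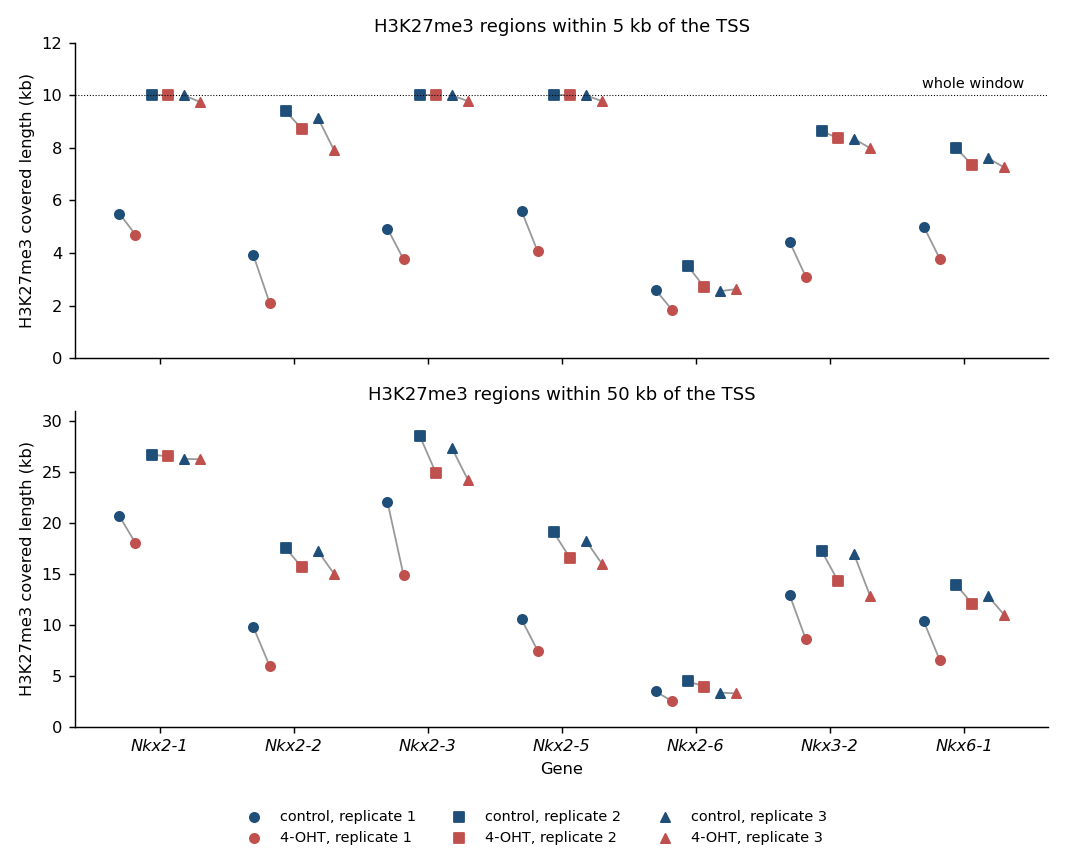
H3K27me3 covered length (kb) at each of the 7 Nkx genes within 5 kb (top) and 50 kb (bottom) of the TSS, control in blue and 4-OHT in red, with a grey line joining replicates of the same number and the dotted line at the full 10 kb window. Replicate 1 (circles) lies below replicates 2 and 3 at 6 genes in both conditions, and in the lower panel the 4-OHT point is the lower one of all 21 pairs, by 50 bp at the least (Nkx2-1, replicate 3).

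As a ratio to the control, the H3K27me3 left with 4-OHT at the Nkx genes was above the median of all tested genes. The log2 ratio of mean covered length, 4-OHT to control with 25 bp added to both, had a median of -0.14 over the 7 genes within 5 kb (range -0.26 to -0.06), whereas the median over the 4205 tested genes was -0.62. Within 50 kb the medians were -0.28 over the 7 genes (range -0.40 to -0.06) and -0.74 over 8530 genes. Between 73.1 and 86.8% of tested genes had a lower ratio than the member concerned within 5 kb. The median control coverage was 7488 bp over the 7 genes and 800 bp over all tested genes, and the part that this difference in width has in the ratios was not tested.

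**Figure D3:**
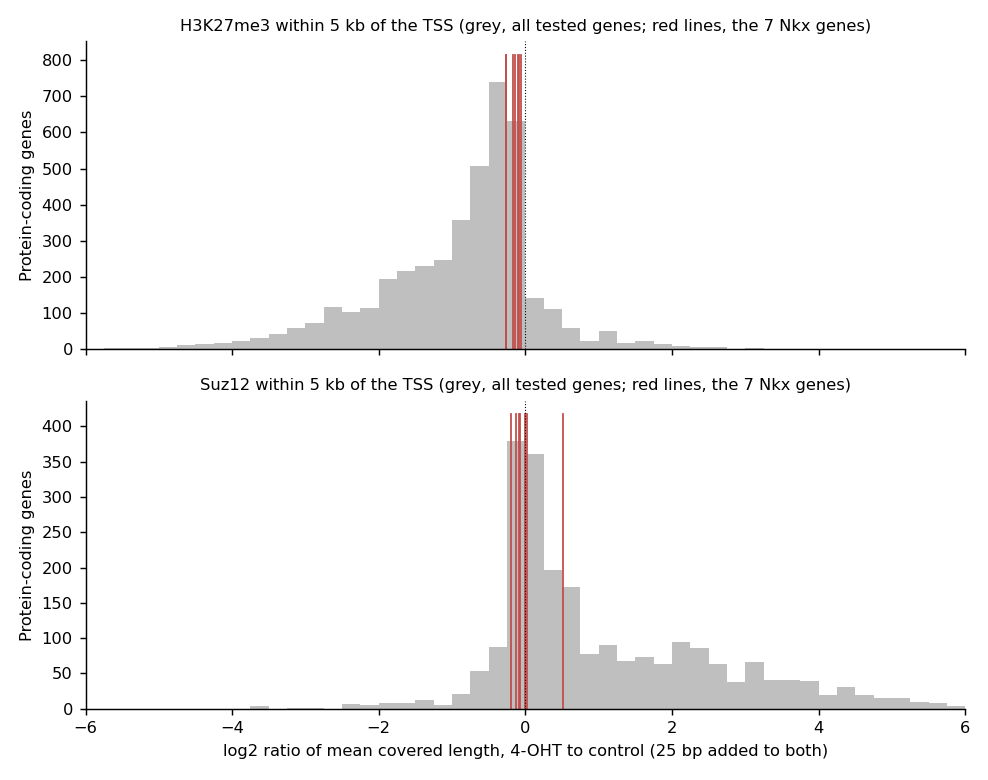
Log2 ratio of mean covered length within 5 kb of the TSS, 4-OHT to control (x axis, 25 bp added to both), over all tested protein-coding genes (grey bars, number of genes) for H3K27me3 and Suz12, with the 7 Nkx genes as red lines. For H3K27me3 the 7 genes lie between -0.26 and -0.06, right of the all-gene median of -0.62, and for Suz12 all but Nkx2-6 lie between -0.20 and 0.02, left of the all-gene median of 0.49. Median control coverage was wider at the 7 genes than over tested genes, at 7488 against 800 bp for H3K27me3 and 7655 against 325 bp for Suz12.

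Over the 7 genes together, the bases that lost H3K27me3 overlapped less with Suz12 than those that kept it. In pairs 2 and 3 the lost bases lay largely away from the TSS, except at Nkx2-6 in pair 2. There the median distance from the TSS was 0.87 kb for lost and 2.99 kb for kept bases. Within 50 kb of the 7 genes together, 14500 of the 127650 bp of control replicate 2 (11.4%) were outside the regions of 4-OHT replicate 2, and 1100 bp were gained. In pair 3, 12.9% was lost, and in pair 1 it was 31.6%. Of the lost bases 10.3% in pair 2 and 18.3% in pair 3 were covered by Suz12 in both control replicates, against 66.3% and 68.0% of the kept bases. In pair 1 the shares were 35.4% and 48.7%. Single genes went the other way in pair 1, at Nkx2-2 (59.1% of lost and 58.2% of kept bases), Nkx2-5 (35.1% and 32.3%) and Nkx3-2 (38.9% and 23.8%). Between 10 and 50 kb from the TSS the covered length went from 31592, 32097 and 29807 bp in the control to 21630, 23807 and 21732 bp with 4-OHT, whereas between 1 and 5 kb it went from 27910, 49098 and 47833 bp to 20933, 47558 and 45883 bp. In pairs 2 and 3 the net decrease beyond 10 kb was larger than that of the nearer bands together, and in pair 1 it was smaller.

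Lost and kept bases also differed in sequence, in opposite directions in pair 1 and in pairs 2 and 3. Lost bases held 19.4 and 19.2 CG per kb in pairs 2 and 3, below the 29.4 and 29.5 of kept bases and above the 9.84 and 10.0 of bases outside H3K27me3 in both conditions. In pair 1 the lost bases held 17.3 and the kept bases 13.9 CG per kb.

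Some single stretches, chosen after their values were seen, were shorter with 4-OHT, and others were not. The share of all H3K27me3 regions whose values did not overlap between conditions was not counted. Upstream of Nkx2-5, a region at chr17:26991601-26993300, 13.1 kb from the TSS, covered 650, 1550 and 775 bp in the control and 375, 200 and 225 bp with 4-OHT, which did not overlap. The neighbouring region at chr17:26990051-26991400 covered 1075, 1250 and 1200 bp and then 800, 750 and 425 bp, which did not overlap either. The domain over the gene itself, chr17:26973126-26989800, covered 8825, 16300 and 16075 bp and then 6125, 15600 and 15350 bp. At Nkx3-2 the domain that runs from 0.235 kb downstream of the TSS through the gene and beyond, chr5:42142501-42155500, covered 9425, 12975 and 12300 bp in the control and 6300, 10700 and 9225 bp with 4-OHT. The widest single stretch near the Nkx3-2 TSS went from 4150, 12975 and 12100 bp to 1025, 7675 and 4050 bp. By contrast, chr12:57617551-57626175 downstream of Nkx2-1 covered 6675, 8575 and 8575 bp in the control and 6325, 8550 and 8575 bp with 4-OHT. Downstream of Nkx2-6, chr14:69808926-69810700 covered 875, 975 and 800 bp and then 675, 1225 and 650 bp, a rise in pair 2. Of 67 merged H3K27me3 regions within 50 kb of the 7 genes, 0 were present in every control replicate and absent from every 4-OHT replicate, and 0 the reverse.

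**Figure D4:**
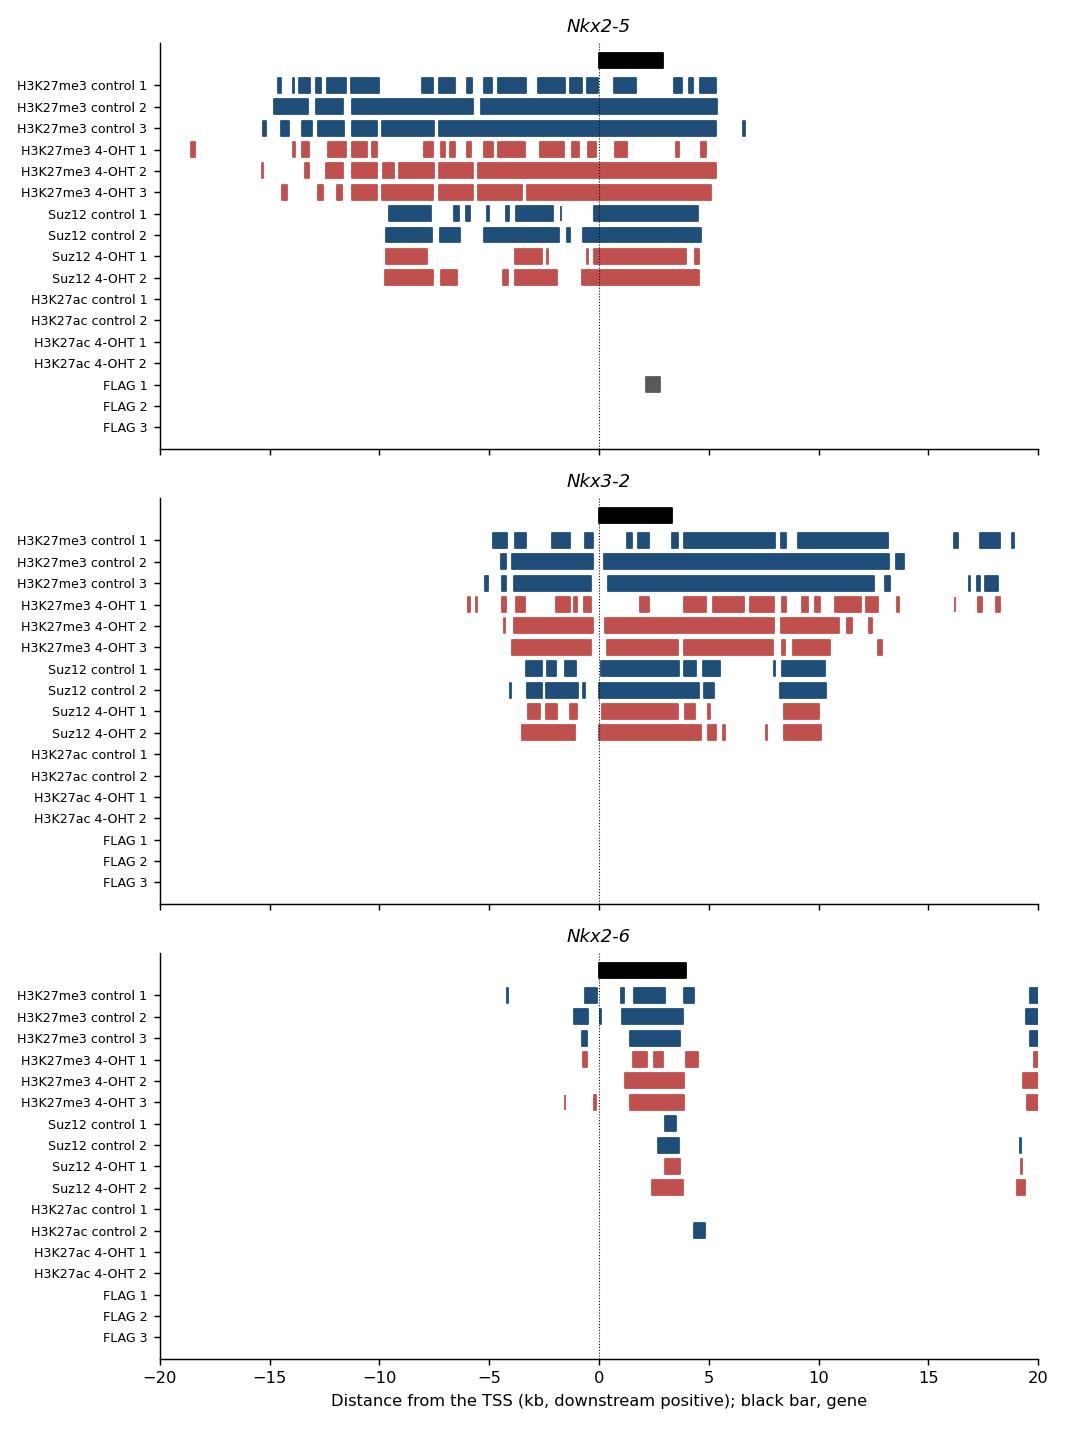
Enriched regions at Nkx2-5, Nkx3-2 and Nkx2-6 in each of the 17 lists (rows), drawn to scale by distance from the TSS (kb, downstream positive), with the gene as a black bar, control in blue, 4-OHT in red and FLAG in grey. At Nkx2-5 the H3K27me3 stretches beyond 11.5 kb upstream are shorter in the 4-OHT rows, replicate 1 rows are broken into short pieces, and at Nkx2-6 no Suz12 bar lies within 1 kb of the TSS.

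Suz12 overlapped between the conditions at 5 of the 7 genes, and at Nkx2-1 and Nkx2-2 it was lower with 4-OHT in the regions as deposited. With regions joined within 1 kb neither gene was lower, with mean differences of 12.5 bp at Nkx2-1 and 0 bp at Nkx2-2. Within 5 kb of its TSS, Nkx2-2 had 9675 and 9725 bp of Suz12 in the control, against 8650 and 9175 bp with 4-OHT. Nkx2-1 had 8705 and 8880 bp and then 8055 and 8455 bp. At both genes the conditions did not overlap (p = 0.33 by a two-sided exact permutation, and 2 replicates against 2 cannot go lower). These were 2 of 7 genes lower, beside 5.9% of 2290 tested genes, and 0 of 7 were higher, beside 32.1%. Without 4-OHT replicate 2 there were 5 lower, beside 31.2%, and without 4-OHT replicate 1 there were 3 higher, beside 74.6%. Median control Suz12 coverage within 5 kb was 7655 bp over the 7 genes and 325 bp over the tested genes. Nkx2-3 filled the window in the control and could not be called higher, and Nkx2-2 nearly filled it. The 4-OHT lists held 3654 and 4016 Suz12 regions, against 2951 and 2913 in the control. The part that these differences have in the shares was not tested.

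At the mesodermal genes and Nkx6-1 the Suz12 values overlapped between conditions. Nkx2-5 had 6550 and 8635 bp in the control and 5725 and 7500 bp with 4-OHT. Nkx3-2 had 5940 and 7040 bp and then 5290 and 7065 bp, and Nkx2-3 filled the 10000 bp window in all 4 lists. Nkx6-1 had 7430 and 7880 bp and then 7355 and 8180 bp. At these 4 genes the ranges of the replicates overlapped or coincided. Nkx2-6, with 500 and 950 bp and then 700 and 1400 bp, had the largest ratio of 4-OHT to control, and its values overlapped too. The median log2 ratio was -0.07 over the 7 genes, with Nkx2-6 at 0.52, and 0.49 over the tested genes. Control Suz12 coverage differed between these sets as given above, and its part in the ratios was not tested.

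**Figure D5:**
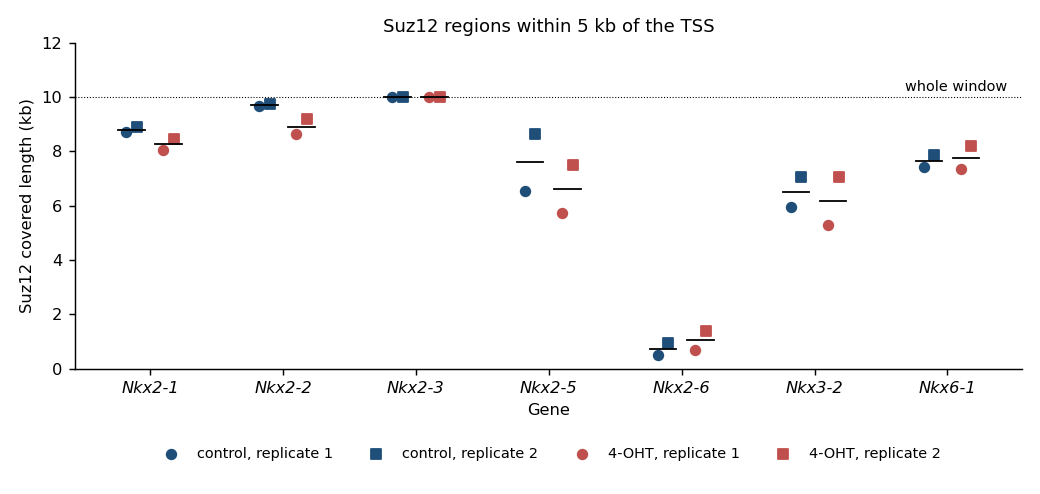
Suz12 covered length (kb) within 5 kb of the TSS at each of the 7 Nkx genes, control in blue and 4-OHT in red, with circles for replicate 1, squares for replicate 2, a bar at the mean of 2 and the dotted line at the full 10 kb window. Control and 4-OHT points are apart at Nkx2-1 and Nkx2-2, overlap or coincide at the other 5, and lie at 1.4 kb or below at Nkx2-6.

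H3K27ac was nearly absent from the 7 loci. Within 5 kb of a TSS a single region was found in the 4 lists, 500 bp in control replicate 2 just downstream of Nkx2-6. That left 1 of 7 genes to compare, of which 0 were lower, beside 12.5% of 12044 tested genes, and 0 higher, beside 39.8%. Since no gene had H3K27ac there in both control replicates, a loss at these promoters could not have been called, and in both 4-OHT lists all 7 genes were at 0 bp.

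The one member with H3K27ac nearby in both control replicates was Nkx2-3. Within 50 kb it had 550 and 2275 bp in the control and 50 and 300 bp with 4-OHT, in small regions from 17.4 to 41.2 kb downstream of the TSS. Only 2 of the 7 genes had any H3K27ac in this window. All 4-OHT values lay below the control values at 1 of these 2 genes, beside 19.9% of 17243 tested genes. A count over 2 genes is too small to set against that share. Of these regions, 2 were present in both control replicates and in neither 4-OHT replicate, as were 9.56% of all 56584 merged H3K27ac regions. The first, chr19:43719901-43720350, covered 75 and 450 bp in the control, and the second, chr19:43720801-43721325, covered 25 and 525 bp. The region at chr19:43705651-43705975 was in all 4 lists, with 225 and 300 bp and then 50 and 250 bp. Control replicate 1 was below control replicate 2 in all 3 regions. The stretches that the replicates shared are shown from the mm9 plus strand, for the region found in every list and the 2 found in the control alone, the regions on which this comparison turns. CG is again in capitals. They are chr19:43705726-43705775 (in all 4 lists) and chr19:43720201-43720275 and chr19:43721201-43721225 (in both control lists only).
Nkx2-3, 18.9 kb downstream: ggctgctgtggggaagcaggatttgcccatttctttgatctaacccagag
Nkx2-3, 33.4 kb downstream: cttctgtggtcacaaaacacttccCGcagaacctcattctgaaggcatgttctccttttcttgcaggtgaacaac
Nkx2-3, 34.4 kb downstream: gtttccaaaatattCGttatgtgtt
These stretches held 0, 1 and 1 CG.

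No reproducible Brg1 region was found at the 7 genes. A Brg1-bound region, one enriched in at least 2 of 3 FLAG replicates, lay within 5 kb of the TSS at 0 of 7 genes, beside 2.1% of all genes, and within 50 kb at 0 of 7, beside 9.33%. A FLAG region of any single replicate lay within 5 kb at 2 of 7 genes, beside 14% of all genes, and within 50 kb at the same 2 genes, beside 38%. All 3 such regions came from replicate 1. One covered 600 bp of the last exon of Nkx2-5 (chr17:26975751-26976350, 2.46 kb downstream of the TSS) and one covered 50 bp in an intron of Nkx2-3 (chr19:43688001-43688050). The third, 175 bp at chr19:43728001-43728175, lay 41.3 kb downstream of Nkx2-3 and overlapped an H3K27ac region of 325 bp that was found in control replicate 2 alone. With 192 regions in FLAG replicate 3, the rule rested on replicates 1 and 2 for most of the genome. The nearest Brg1-bound region to any of the 7 genes within 100 kb lay 99.0 kb upstream of Nkx6-1.

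Across the 17 lists together, 6 of the 7 genes were alike and Nkx2-6 stood apart. The mean absolute difference in covered length within 5 kb of the TSS was between 415 and 1313 bp among the 6 and between 2781 and 4095 bp for Nkx2-6 against each of them. The pairs nearest to each other were Nkx2-1 and Nkx2-5 (415 bp) and Nkx2-1 and Nkx2-3 (441 bp). Among all other protein-coding genes, those most like the members by this measure were Hoxb5 (136 bp), Wt1 and Otp for Nkx2-1, and Lhx5 (220 bp), Uncx and Six3 for Nkx2-2. For Nkx2-3 they were Hoxa9 (82.9 bp), En1 and Foxf1a, and for Nkx2-5 they were Sim2 (236 bp), Cdx2 and Foxb2. Nkx3-2 was nearest to Insm1 (227 bp), Sox14 and Gdnf, and Nkx6-1 to Foxc2 (132 bp), Osr2 and Hmx3. The genes nearest to Nkx2-6 were Syt16 (163 bp), a synaptotagmin, Cdc20b, and Gabra5, a subunit of the receptor for the transmitter GABA. These differences are means over all 17 lists, without a test, and are a description.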

How the data were processed

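ChIP-seq for FLAG, H3K27ac, H3K27me3 and Suz12 was represented by 17 lists of enriched regions, and 11 input samples had no list and were not analysed here. Per the labels and the study's methods, the authors aligned reads with Bowtie to mm9 and called regions in each replicate over input with a Poissonian model, at 1e-06 with at least 2-fold enrichment for FLAG and 1e-12 for the other antibodies. Versions and read filters are not given in the sources used here. The deposited lists hold positions only, in steps of 25 bp, so depth is unknown and no counting interval can be given. Region calling makes covered length depend on sequencing depth and on the threshold.

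Conditions and replicate numbers came from the sample titles. The TSS of a gene was the 5′ end over its protein-coding transcripts in the GENCODE vM1 annotation of the same build, and sequences came from that build. At Nkx2-2, with 4 annotated TSSs, the one used was chr2:147012138, which lies inside the gene span and not at its 5′ end. With windows around all 4, its mean H3K27me3 difference was -2425 bp, against -1233 bp around the TSS used. Covered bp were computed within 5 and 50 kb of the TSS and in gene bodies. Control and 4-OHT replicates were compared per gene by two-sided exact permutation tests (smallest p 0.1 for 3 against 3, 0.33 for 2 against 2) and counted as lower or higher when the conditions did not overlap, with the same rule over all genes with any covered bp. The p-values measure only the spread between these replicates. Samples of the same number deviated together for H3K27me3 (r = 0.909, 0.820 and 0.764 over 4205 genes for numbers 1, 2 and 3), as judged from the lists alone, so paired values are given beside the unpaired ones. Unlike numbers also did so for control replicate 2 with 4-OHT replicate 3 (r = 0.585) and control replicate 3 with 4-OHT replicate 2 (r = 0.649). The pairing of replicates 2 and 3 is therefore less certain than that of replicate 1. The members and gene lists were chosen with earlier results of these data known. All 7 members were named. Other genes named are 6 further genes of the family, the 3 genes nearest to each member over the 17 lists, and markers. Results that need an item withheld from this text are not reported here. Individual regions shown for H3K27me3 were chosen after their values were seen. Alternatives were other windows and TSSs, equal numbers of regions, regions of at least median width, regions joined within 1 kb, each replicate left out and pairing. On simulated lists of 4000 genes with 200 lost, 100% of lost genes and 4.76% of unchanged genes were called lower in the 3 against 3 comparison. The simulated lost regions were always narrower than the unchanged ones, so the 100% was fixed by the design. It checks the code only. The simulation had no filled windows and no replicate set apart, so it does not give the sensitivity of the rule in these data. Scripts ran in Python 3.11.15 with SciPy 1.17.1 and NumPy 2.4.6, and plots were drawn with Matplotlib 3.10.9.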

Additional observations from a re-analysis of the deposited data

How the results depend on the processing

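Covered length depends on the caller's threshold and on depth, which is unknown. Windows filled by regions hide a difference, and 2 or 3 replicates cannot pass a threshold of 0.05. Of the per-gene differences within 5 kb under other settings, 128 kept their direction, 22 reversed, 1 went to 0 and 10 belonged to Suz12 at Nkx2-3, whose difference was 0. For H3K27me3 all 42 from settings that left no replicate out kept it. The causes were not tested. Shares over all genes were computed only for the settings where they are given above. The other counts in this section, such as those with 2.5 kb windows or joined regions, have no such share beside them. They cannot be read as a trait of the Nkx genes. The replicate block (pairing) counts, for each mark, genes lower or higher in every pair, and their values may overlap between conditions. By it 3 Nkx genes had lower H3K27me3 within 5 kb. The count of Nkx genes with H3K27me3 lower without overlap was 0 within 5 kb, and became 1 within 2.5 kb and 2 without replicate 1 of both conditions. Leaving out single replicates gave 0 to 2. Within 50 kb the count was 0, and became 5 without replicate 1 of both conditions, 2 with regions joined within 1 kb, and 0 to 5 with single replicates left out. All settings for 50 kb, and those without replicate 1 of both conditions, were chosen after the data were seen. Genes lower in every pair within 50 kb numbered 5 to 7 over all settings. For Suz12 the count lower was 2 (Nkx2-1 and Nkx2-2), and 1 with regions joined, where it was Nkx2-5 and the Nkx2-2 difference was 0 bp, 3 with the replicate block, and 2 to 5 with single replicates left out. The count higher was 0, and 1 with the replicate block (Nkx2-6) and 0 to 3 with replicates left out. Suz12 and H3K27ac samples shared only a number (correlations of deviations 0.502 and 0.440 over 2 pairs). The H3K27ac count lower was 0, and 0 to 1 with replicates left out, 1 without control replicate 1, and the replicate block changed no other call. Such comparisons with a single list in a condition carry no test. Brg1-bound genes within 50 kb were 0, 2 with a region in any FLAG replicate and 1 within 100 kb. Regions found in a single condition were 2, and 1 when merged within 1 kb. Suz12 differences reversed at Nkx6-1 within 10 kb (-125 bp), at Nkx3-2 with regions of at least median width (205 bp) and at Nkx2-1 with regions joined (12.5 bp). With single replicates left out the H3K27me3 difference ranged from -1850 to 1375 bp at Nkx2-1, -3021 to 837 at Nkx2-2, -2155 to 1579 at Nkx2-3, -2055 to 1354 at Nkx2-5, -2005 to 1046 at Nkx3-2 and -1674 to 435 at Nkx6-1. For Suz12 it ranged from -300.0 to 525 bp at Nkx6-1, -2023 to 62.5 at Nkx2-5, -1200 to 575 at Nkx3-2 and -25 to 675 at Nkx2-6.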
